A study of Homo sapiens with 8 samples.

Results

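The 5 microRNAs (miRNAs) hsa-miR-5090, hsa-miR-3923, hsa-miR-4270, hsa-miR-1587 and hsa-miR-942 were selected from the 2006 human miRNAs on the array for their signal in SKBR3 cells, where they were picked as detected with a rise after trastuzumab. SKBR3 and BT474 are established human breast cancer lines that overexpress the receptor HER2, and trastuzumab is a therapeutic antibody against HER2. BT474 is labelled estrogen receptor, HER2 and progesterone receptor positive, and SKBR3 HER2 and progesterone receptor positive, although the methods of the study call SKBR3 progesterone receptor negative. Cells of each line received 6 µg/mL trastuzumab or PBS for 144 h, and total RNA was hybridized to one-colour arrays, with 2 labelled replicates per treatment and line, named as biological replicates in the methods. The labels do not give the cultures behind the replicates, so the p-values measure the spread between these arrays only.

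The array labelled SKBR3 PBS replicate 1 holds the same values as BT474 PBS replicate 1 at all 62344 spots. It was left out, so that 7 distinct arrays remained, with 1 PBS array (replicate 2) and 2 trastuzumab arrays in SKBR3 and 2 of each in BT474. The SKBR3 contrast chose the members and is therefore described without a test, and the test is that of BT474, whose arrays the rule did not use, although earlier results of them were known when the members were chosen. Detected miRNAs numbered 201 to 256 per array. The epithelial miR-200 family and miR-205-5p, fixed as markers of these cells, were all detected on each BT474 array (6 of 6), whereas in SKBR3 only miR-200c-3p and miR-141-3p were (2 of 6), so that the epithelial label of SKBR3 rests on these. The arrays shared 1 slide, the PBS arrays in its row 2 and the trastuzumab arrays in its row 1, and the treatment and the row cannot be told apart.

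A miRNA is cut from a hairpin precursor and guides the silencing complex to messenger RNAs. Pairing is set largely by bases 2 to 8 from its 5′ end, the seed. miRNAs of one seed therefore share many predicted targets, and changes in miRNA levels have been studied as part of the response of HER2-positive cells to trastuzumab.

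The mature sequences below are those of RefSeq, shown because the array probes and the target recognition both depend on them, with the seed in capitals. All 5 members were matched by name, miR-942 through the 5p arm of its hairpin, the arm taken to carry the older name used by the array.
hsa-miR-5090: cCGGGGCAgauugguguagggug
hsa-miR-3923: aACUAGUAauguuggauuaggg
hsa-miR-4270: uCAGGGAGucaggggagggc
hsa-miR-1587: uUGGGCUGggcuggguuggg
hsa-miR-942: uCUUCUCUguuuuggccaugug

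The 5 seeds all differed from each other, so the members were not a seed family. In the assembly GRCh38.p14, miR-5090 lies at chr7:102465752-102465774 on the plus strand within the span of LRWD1, a gene of the origin recognition machinery. miR-3923 lies at chr3:79507937-79507958 on the plus strand within the span of ROBO1, which encodes an axon guidance receptor. miR-4270 lies at chr3:15496279-15496298 on the minus strand within the span of COLQ, the collagen tail of acetylcholinesterase. miR-1587 lies at chrX:39837562-39837581 on the plus strand, where the RefSeq gene table places no other gene. miR-942 lies at chr1:117094655-117094676 on the plus strand within the span of TTF2, a transcription termination factor. Exons and introns were not analysed here. Among the array miRNAs with a sequence, miR-4441 shares the seed of miR-4270 and miR-3620-5p that of miR-1587, and neither was detected on any of the 7 arrays.

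The content of G, which the choice by signal did not use, was high in 3 of the 5 members. The share of G was 52.2% in miR-5090, 55% in miR-4270 and 60% in miR-1587, against 31.8% in miR-3923 and 22.7% in miR-942. Their median of 52.2% compares with 27.3% over the 1688 array miRNAs with a sequence and 30.4% over those detected on all 3 SKBR3 arrays. The run GGG, searched on the miRNA strand only, occurred in 4 of the 5 members, and miR-942 was the member without it. It occurred in 31.0% of the 1688 miRNAs and in 42.2% of those detected on all 3 SKBR3 arrays. These are descriptions of 5 sequences, with no test.

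The deposited files give each miRNA a summed signal in intensity units and a detection flag. On all arrays, a miRNA was flagged as detected where at least 1 of its probes exceeded 3 times its own error, and the summed signal added only the probes that did so, with 0.1 written for a miRNA that was not detected. The sum over all probes of a miRNA, whether detected or not, was therefore computed as a second measure. This sum was chosen after the data had been seen. Intensities of different miRNAs depend on their probes and were not compared with each other.

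hsa-miR-5090 was the member with all of its probes above the detection limit on both SKBR3 trastuzumab arrays. Its summed signal was 205 and 214 on the SKBR3 trastuzumab arrays, and it was not detected on the SKBR3 PBS array. In BT474 it was detected on trastuzumab replicate 2 at 173 and on none of the other arrays. The trastuzumab arrays of SKBR3 and 1 of the BT474 trastuzumab arrays were thus high, and the 3 PBS arrays were all without a detection.

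All 3 probes of miR-5090 contributed. Their signals were 70.8, 60.3 and 74.3 on SKBR3 trastuzumab replicate 1, 75.6, 60.0 and 78.6 on replicate 2, and 8.998, 12.2 and 8.37 on the SKBR3 PBS array. The signal over its error lay between 4.78 and 5.87 on the trastuzumab arrays and between 0.95 and 1.38 on the PBS array, so that no probe stood near the limit of 3. The sum over all probes was 29.6 on the SKBR3 PBS array, with each probe under the detection limit. This sum had rank 280 among the 2006 miRNAs of that array, so undetected does not mean absent. The mean normalized summed signal with trastuzumab was 4.86-fold the lowest detected signal on the PBS array, which is not a strict lower bound.

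hsa-miR-3923 was detected with a summed signal of 74.0 and 34.5 on SKBR3 trastuzumab replicates 1 and 2, and on none of the other 5 distinct arrays. This gap between the replicates lay in the number of probes added, which was 2 of 3 on replicate 1 and 1 of 3 on replicate 2. The 3 probes gave 28.9, 36.4 and 37.6 on replicate 1 and 32.3, 34.5 and 30.3 on replicate 2, so that the sums over all probes were close, at 102.9 and 97.1. The SKBR3 PBS array had 28.2, below both.

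The probes of miR-3923 stood on both sides of the detection limit. Their signal over error was 2.56, 3.17 and 3.26 on replicate 1 and 2.90, 3.09 and 2.74 on replicate 2, against 0.70, 1.37 and 1.12 on the PBS array. The mean normalized summed signal with trastuzumab was 1.41-fold the lowest detected signal on the PBS array, again not a strict lower bound.

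hsa-miR-4270 was detected at 55.0 and 53.0 on the SKBR3 trastuzumab arrays and on no other array. Detection rested on 1 of its 2 probes, with a signal over error of 3.18 and 3.13. The other probe had 2.70 and 2.17. On the SKBR3 PBS array, where the ratios were 1.53 and 1.70, the sum over all probes was 43.1, against 101.1 and 88.4 with trastuzumab. The mean normalized summed signal with trastuzumab was 1.11-fold the lowest detected signal on the PBS array. Replicate 1 alone, at a log2 value of 5.84, lay under that signal, at 6.01. This is not a lower bound, since the PBS sum of 43.1 was above the lowest detected signal, 19.3 before normalization. miR-4270 had the highest SKBR3 PBS signal over error among the members that were not detected there.

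hsa-miR-1587 did not match the description of a gained miRNA, since it was detected on all 7 arrays. Its summed signal was 44.5 on the SKBR3 PBS array and 143.3 and 127.1 on the trastuzumab arrays, both above the PBS array. On every array this was the signal of the same probe, whose signal over error was 3.20 on the SKBR3 PBS array and 6.56 and 6.17 with trastuzumab. The other probe had a signal of 1.33 on the PBS array and of 48.5 and 37.4 with trastuzumab, where it stayed under the limit of 3. The normalized summed signal was 1.80-fold higher and the normalized sum over all probes 2.91-fold higher with trastuzumab, and without normalization the log2 difference of the summed signal was 1.60 in place of 0.85. The size of the difference in SKBR3 thus depended on the measure.

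hsa-miR-942 had the weakest data. It was detected on SKBR3 trastuzumab replicate 1 alone, at 26.8, and not on replicate 2. Only 1 of its 4 probes carried this signal, with a signal over error of 3.10, while the same probe had 9.36 intensity units and a ratio of 1.24 on replicate 2 and 3.003 units on the PBS array. The other 3 probes lay between -4.19 and 4.18 intensity units on all arrays. The sum over all probes was 23.7 and 8.24 with trastuzumab and 5.15 on the PBS array, and 8.54 on BT474 trastuzumab replicate 1, above SKBR3 trastuzumab replicate 2.

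**Figure D1:**
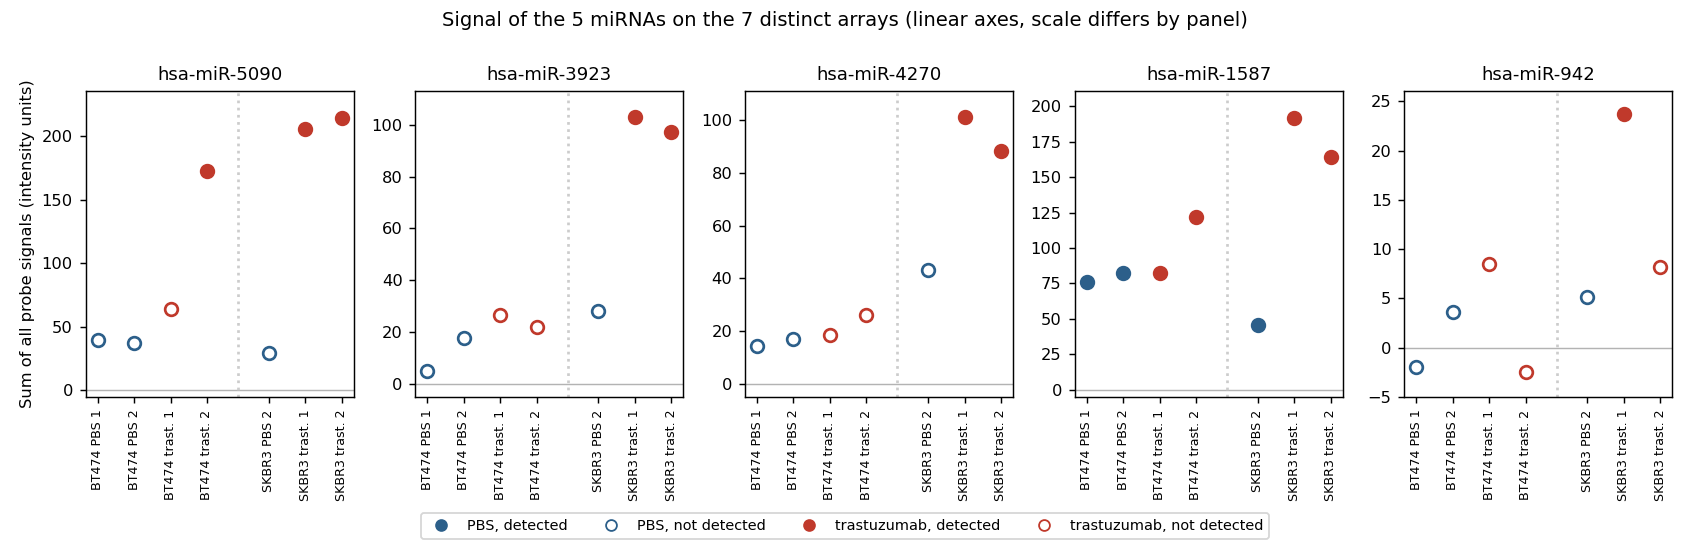
The sum of all probe signals of each member (y axis, intensity units, linear, not normalized) on each of the 7 distinct arrays (x axis); filled points were detected and open points not, blue is PBS and red trastuzumab, and each point is 1 array. In SKBR3 both trastuzumab points lie above the PBS point in every panel, and for miR-5090 the BT474 trastuzumab points, 64.0 and 172.5, lie above the PBS points, 39.4 and 37.2.

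**Figure D2:**
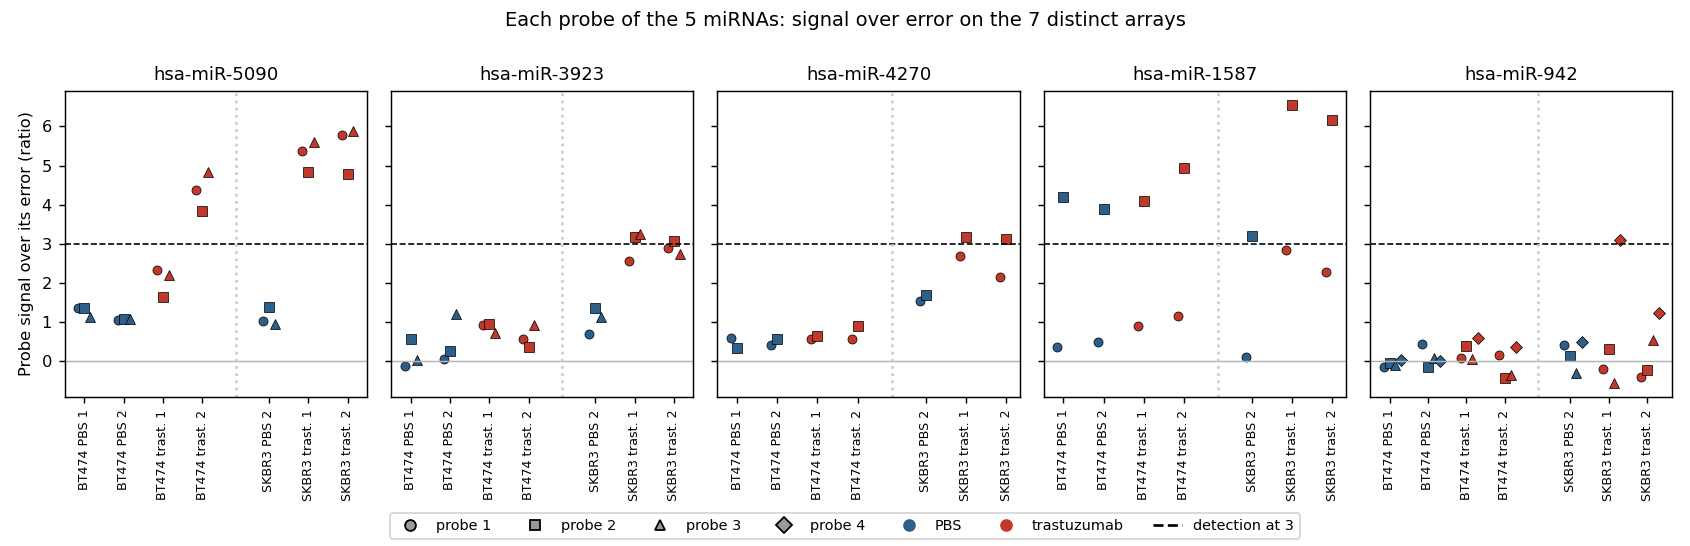
The signal of each probe divided by its error (y axis, ratio) on the 7 distinct arrays (x axis), with 1 marker shape per probe and the detection limit of 3 as a dashed line. The probes of miR-5090 clear the limit on 3 arrays, those of miR-3923 and miR-4270 lie close to it on the SKBR3 trastuzumab arrays, and a single probe of miR-942 passes it once.

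The place of the limit decided several of the detections. With a limit of 3.5 times the error, miR-5090 was still detected on both SKBR3 trastuzumab arrays and not on the PBS array, no array detected miR-3923, miR-4270 or miR-942, and miR-1587 lost its detection on the SKBR3 PBS array. With a limit of 2.5, the detections of all 5 members were the same as with 3. These limits were set after the data had been seen.

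The same pattern of detection was then counted over the array. Both SKBR3 trastuzumab arrays and not the PBS array detected 11 of the 2006 miRNAs, of which 3 were members (miR-5090, miR-3923 and miR-4270). A further 13, miR-942 among them, were detected on 1 of the trastuzumab arrays and not on the PBS array. The reverse pattern, detection on the PBS array and on neither trastuzumab array, was found for 7 miRNAs. In the summed signal, 20 of 227 miRNAs (8.81%) were over 2-fold higher on both SKBR3 trastuzumab arrays than on the PBS array. The 3 members among them, fixed by their choice, were miR-5090, miR-3923 and miR-4270. An undetected PBS value was set here to a floor, at a log2 value of 3.32, below the lowest detected PBS signal, at 6.01. Against that signal, the mean with trastuzumab was 4.86-fold for miR-5090, 1.41-fold for miR-3923 and 1.11-fold for miR-4270. In this measure miR-3923 and miR-4270 thus passed 2-fold only against the floor, and such cases among the non-members were not counted. In the sum over all probes, 58 of 818 miRNAs (7.09%) were over 2-fold higher on both arrays, with sums at background included. They again held 3 members, here miR-5090, miR-3923 and miR-1587, while miR-4270 was 1.70-fold higher.

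Of the other 8 miRNAs of this pattern, miR-574-5p, miR-2392, miR-4472, miR-3591-3p and miR-1281 are named here, by a rule on their SKBR3 trastuzumab signal that does not order their levels. In the sum over all probes, the SKBR3 log2 changes of the other 8 ranged from -0.23 to 2.53, so this pattern can occur without a rise. The 11 miRNAs with it differed in BT474. Both BT474 PBS arrays detected 3 of them, miR-574-5p, miR-3591-3p and miR-1281, whereas none of the members was among those. A BT474 trastuzumab array but no BT474 PBS array detected 6, including miR-5090. miR-3923 and miR-4270 were the 2 that no BT474 array detected. The shares of all array miRNAs detected in these ways in BT474 were not counted. The G content of the other miRNAs with this pattern was not high, with a median of 21.7% over the 7 with a sequence, of which 1 held GGG.

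**Figure D3:**
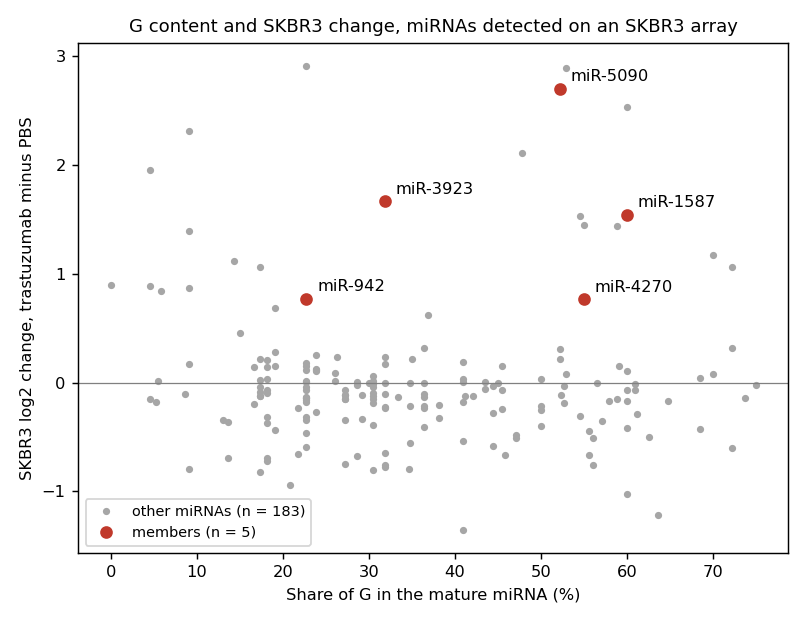
The share of G in the mature miRNA (x axis, %) against the SKBR3 log2 change of the normalized sum over all probes (y axis, trastuzumab minus PBS) for miRNAs detected on at least 1 SKBR3 array, with the members in red. The members lie above 0 by their choice, 3 of them at a G share of 50% or more, while most G-rich miRNAs lie near 0 (median -0.07, n = 48).

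Over the 188 miRNAs detected on an SKBR3 array and with a sequence, the G share and the SKBR3 change had a Spearman correlation of -0.08. The 48 with a G share of at least 50% had a median log2 change of -0.07, and the 140 below it -0.11. A group mean over 2-fold higher with trastuzumab was found for 9 of the 48, with 2 members among them, and for 8 of the 140, with 1 member. Among miRNAs detected on a BT474 array, the BT474 counts were 8 of 45 with a G share of at least 50% and 5 of 188 below it. Over 2-fold lower were 1 of the 45 and 12 of the 188, and the Spearman correlation was -0.03. These miRNAs share the arrays, and no test was made.

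BT474 was the line in which the members could be tested. In the summed signal, 2 of the 5 members could be tested, since miR-3923, miR-4270 and miR-942 were not detected on any BT474 array, and 0 of the 2 were called, where a call needed more than a 2-fold difference with p below 0.05 before adjustment. Over all 285 miRNAs tested, 20 were called higher (7.02%). miR-5090 had a log2 difference of 1.73 (SE 1.44, adjusted p = 0.463, limma with 2 arrays per group), which came from the single array that detected it. The spread between the trastuzumab arrays, 1 detected and 1 not, was larger than the difference, and the groups overlapped. miR-1587 was measured at 70.5 and 73.8 with PBS and at 68.3 and 101.2 with trastuzumab, with the groups overlapping and a log2 difference of 0.22 (SE 0.23, adjusted p = 0.535, limma). Its sign turned with another scaling, to -0.25 when each array was scaled to the 75th percentile of those miRNAs that all 7 arrays detected.

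The sum over all probes kept a value for members under the limit. For miR-5090 in BT474 it was 39.4 and 37.2 with PBS, and with trastuzumab it was 64.0 and 172.5. The groups did not overlap, and each of the 3 probes gave the same order, although replicate 2 lay far above replicate 1. Replicate 2 was also the array with the highest median detected signal before normalization, 494.5. The share of all tested miRNAs whose groups did not overlap was not counted. With 2 arrays per group, a lack of overlap, here and for the other members, is a description only. The log2 difference after normalization was 1.51 (SE 0.37, adjusted p = 0.146, limma), and miR-5090 was the only member called in BT474, 1 of 4 tested, against 28 of all 830 tested (3.37%). None of the 830 reached an adjusted p under 0.05 in this limma fit, and 176 had an unadjusted p under 0.05.

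This call for miR-5090 was not stable. It was lost without normalization between the arrays (log2 difference 1.46), without PBS replicate 1 (1.66) and without PBS replicate 2 (1.38), where the size stayed near 1.51 and the unadjusted p was above 0.05. It was also lost without trastuzumab replicate 2, where the log2 difference was 1.04, against 1.93 without trastuzumab replicate 1.

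The other members had smaller differences in BT474. miR-3923 had sums of 4.87 and 17.9 with PBS and 26.6 and 22.0 with trastuzumab, without overlap, and a log2 difference of 0.98 (SE 0.31, adjusted p = 0.206, limma), below 2-fold and with its unadjusted p under 0.05. These sums were lower than the 28.2 of the SKBR3 PBS array, where miR-3923 was not detected, and 1 of its BT474 PBS sums lay under the floor of 10 that was set for the test. miR-4270 had 14.2 and 16.9 with PBS and 18.5 and 26.0 with trastuzumab, without overlap, and a log2 difference of 0.60 (SE 0.11, adjusted p = 0.120, limma), also below 2-fold and with its unadjusted p under 0.05. No probe of either miRNA exceeded 1.21 times its error on a BT474 array, so that both differences lie between signals at background.

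miR-1587 had 76.1 and 82.3 with PBS and 82.2 and 122.0 with trastuzumab, with a log2 difference of 0.29 (SE 0.12, adjusted p = 0.287, limma). Its groups overlapped by a narrow margin in these sums before normalization. The normalized log2 values used in the fit did not overlap, at 6.16 and 6.00 with PBS and 6.32 and 6.42 with trastuzumab. For miR-942 the sums were -2.02 and 3.63 with PBS and 8.54 and -2.50 with trastuzumab, overlapping and all under the floor, so that no difference was detectable. With all 4 BT474 arrays, none of the 5 members thus had an adjusted p under 0.05 in either measure. In spot intensities corrected with normexp, miR-5090 did, with a log2 difference of 0.48 (SE 0.13, adjusted p = 0.0400, limma), under 2-fold. In that limma fit, 345 of all 2006 miRNAs had an unadjusted p under 0.05. How many had an adjusted p under 0.05 at any fold was not counted, so this is not a result particular to miR-5090.

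**Figure D4:**
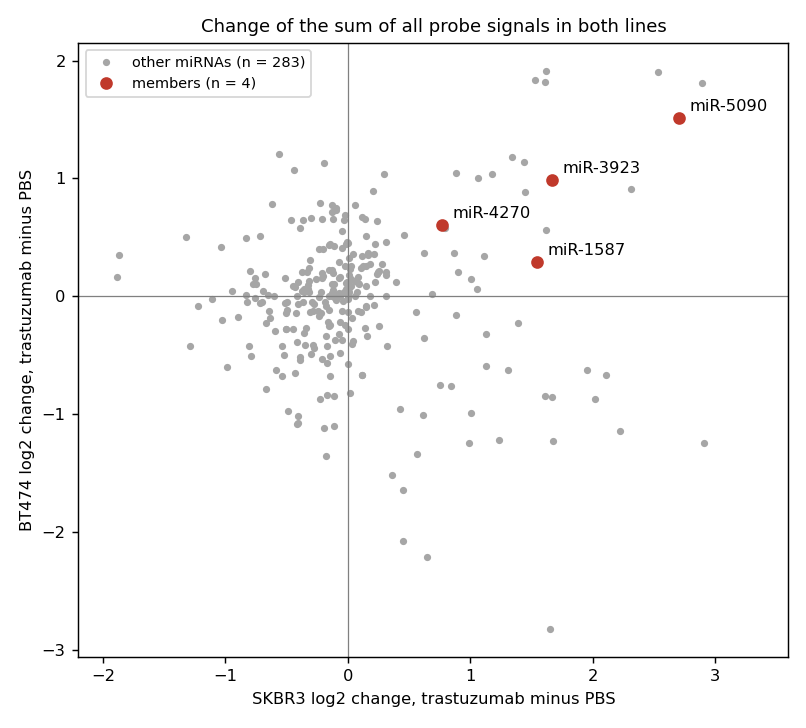
The log2 change of the normalized sum over all probes, trastuzumab minus PBS, in SKBR3 (x axis) and in BT474 (y axis), signals at background included, 1 point per miRNA detected on at least 1 of the 7 arrays, with members in red (miR-942 has no BT474 value). The members lie to the right of 0 by their choice and from 0.29 to 1.51 in BT474, and the 287 miRNAs as a whole have a Pearson correlation of 0.07 between the lines.

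Across the 287 miRNAs detected on at least 1 array and with a value in both lines, the changes in the lines were nearly unrelated (Pearson r 0.07, Spearman rho 0.10, over miRNAs that share the arrays). In the sum over all probes, 444 of all 830 miRNAs tested in BT474 (53.5%) were higher with trastuzumab, and so were the 4 members tested. Of the 63 non-members over 2-fold higher in SKBR3 on the group means, 32 were higher in BT474 (50.8%). The BT474 signals of miR-3923 and miR-4270 lay at background, and the shared direction was not tested. The SKBR3 and BT474 comparisons rest on different arrays. Whether a member responded differently in the 2 lines was not tested, as the SKBR3 side was used to choose it.

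In the order of the sums over all probes, miR-5090 was lowest on the PBS arrays of both lines. It was intermediate in BT474 with trastuzumab and highest in SKBR3 with trastuzumab. BT474 trastuzumab replicate 2 had a normalized log2 value of 6.90, below the SKBR3 trastuzumab arrays at 8.11 and 8.33. Before normalization this gap was smaller, with sums of 172.5 against 205.4 and 214.2. miR-3923 and miR-4270 were highest in SKBR3 with trastuzumab, followed by the SKBR3 PBS array and the BT474 arrays. For miR-1587 the place of the SKBR3 PBS array depended on the normalization. Before it, its sum of 45.8 was under the BT474 PBS arrays at 76.1 and 82.3, and after it, the log2 value of 6.32 was above theirs, 6.16 and 6.00. With a single SKBR3 PBS array, its spread is not known.

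The miRNAs whose normalized summed signal followed each member most closely over the 7 arrays were sought among 279 miRNAs detected on at least 2 arrays. miR-5090 was most like miR-744-3p (Pearson r 0.99) and miR-4701-3p (0.92), and miR-744-3p was, like miR-5090, detected on both SKBR3 trastuzumab arrays (88.5 and 57.7) and on BT474 trastuzumab replicate 2 (93.1) alone. miR-3923 was most like miR-4270 (0.97) and miR-3162-3p (0.96), and miR-4270, after miR-3923, was most like miR-197-3p (0.95). These values rest on the 3 arrays with miR-5090 above the floor and on the 2 with miR-3923 or miR-4270 above it. miR-3923 and miR-4270 were both chosen on the SKBR3 arrays, so their likeness to each other was partly fixed by the choice.

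miR-1587, which was above the floor on all 7 arrays, was most like miR-4649-3p (0.96) and miR-4653-3p (0.96). This likeness need not include the SKBR3 rise. In the sum over all probes, the SKBR3 log2 change was 1.54 for miR-1587, 0.69 for miR-4649-3p and -0.06 for miR-4653-3p. miR-942 was most like miR-6724-5p (0.92) and miR-4483 (0.86), on the strength of 1 array. The values are descriptions over arrays that differ in both cell line and treatment.

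Markers of other cell types were checked on the same arrays. None of the 5 blood cell, 6 stromal and muscle, 1 endothelial and 1 liver markers was detected on any SKBR3 array. In BT474, miR-1, a muscle marker, was detected on all arrays, from 127 with PBS to 382 with trastuzumab, the endothelial miR-126-3p on 3 arrays (51.6 to 88.5) and the blood cell miR-451a on trastuzumab replicate 2 alone, at 57.3, which is also the BT474 array with the highest miR-5090. The part of these markers in the BT474 values was not tested. miR-4728-3p, which lies within the ERBB2 gene that encodes HER2, was detected on both BT474 PBS arrays (166 and 67.7) and on no BT474 trastuzumab array or SKBR3 array.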

How the data were processed

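Total RNA of SKBR3 and BT474 cells was hybridized by the authors to Agilent one-colour human miRNA arrays (miRBase 19). The authors deposited intensities from Feature Extraction 11.5.1.1 without normalization between arrays, and log2 values of the probes after their own quantile normalization. The other deposited columns used are detection flags. Array data have no read depth, and the number of arrays limits the precision.

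The summed signals of the 2006 miRNAs on the 7 distinct arrays were quantile normalized, set to at least 10 and taken to log2. BT474 trastuzumab was compared with PBS using limma 3.58.1 in R 4.3.3, on miRNAs above the floor on at least 1 array of the line. Calls needed more than a 2-fold difference with p below 0.05 before adjustment, the thresholds of the methods, and Benjamini-Hochberg adjusted p-values were taken over all miRNAs tested. A fold against an undetected SKBR3 PBS value was set against the lowest detected normalized signal of that array. Such a fold is not a strict lower bound, since the probes of an undetected miRNA can sum to more than that signal. The sum over all probes was treated the same way. The fits were tested on simulated data with all means above the floor, which does not cover miRNAs at the floor or undetected on some arrays.

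The alternatives were other scalings, floors, filters, spot means, normexp, the deposited log2 values, all 8 labelled arrays, each array left out, and the replicate number as a block. The members and lists were chosen with earlier results of these data known. The miRNAs named were the members, the 2 most like each, those of a shared seed, the 5 others with the detection pattern and the highest mean SKBR3 trastuzumab signal, and the marker lists. Sequences and positions are from RefSeq. Figures were drawn with matplotlib 3.10.9. Columns of the authors' comparisons were not used.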

Additional observations from a re-analysis of the deposited data

How the results depend on the processing

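With the summed signal the count of members called higher in BT474 was 0, and it became 1 with the deposited log2 values averaged over probes and with the sum over all probes. Leaving out each array in turn gave 0 to 1 in either measure. The 1 in the summed signal came without trastuzumab replicate 1, where miR-5090 had a log2 difference of 3.42 from both PBS arrays at the floor and a single trastuzumab array, so that the fit held no spread of its own for it and no p is given. The BT474 difference of miR-1587 turned to -0.25 with scaling to the 75th percentile of those miRNAs that all 7 arrays detected, and without single arrays it ranged from -0.026 to 0.52, the lowest without PBS replicate 2. The cause was not tested. In SKBR3 the members over 2-fold higher on both trastuzumab arrays numbered 3, with 2 under normexp, 4 with either 75th percentile, without normalization or with all 8 labelled arrays, and 5 with the mean of background-subtracted spots. In the quantile normalized summed signal, miR-3923 and miR-4270 were among the 3 only against the floor set for an undetected PBS value. The count over all miRNAs moved too, from 20 of 227 to 11 of 2006 with normexp. It was 29 of 227 with the 75th percentile of miRNAs that all arrays detected and 34 of 227 with that of all spot means. Without normalization it was 32 of 227, with all 8 arrays 36 of 285, and with background-subtracted spots 119 of 1361.

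Over all miRNAs, 20 were called higher and 20 lower in BT474. The number higher was 13 with the 75th percentile of miRNAs that all arrays detected, 32 with that of all spot means, 71 with background-subtracted spots, 0 with normexp (limma, 345 with an unadjusted p under 0.05 at any fold and in either direction) and 41 with the deposited values. The number lower was 11 with the 75th percentile of all spot means, 13 without normalization, 13 with a floor of 20, 69 with background-subtracted spots, 3 with normexp, 44 with the deposited values, 36 with the sum over all probes and 42 with that sum without normalization. Leaving out each array gave 15 to 26 higher and 15 to 21 lower in the summed signal, and 8 to 22 higher and 16 to 31 lower in the sum over all probes.

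The replicate numbers of the PBS and trastuzumab arrays do not establish a pairing, as there are only 2 pairs (r of same-numbered deviations 0.21 in the summed signal and -0.17 in the sum over all probes, 221 miRNAs). With the replicate number as a block, 19 miRNAs were called higher and 13 lower, with 0 members, and in the sum over all probes 30 and 32, with 1 member. The crossed pairing, added after seeing the data, gave 17 and 16, and 32 and 48 with 1 member in the sum over all probes.

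Precision is limited by 1 distinct SKBR3 PBS array, and by probe signals of 4 of the 5 members near 3 times their error on at least 1 array. Quantile normalization raised the lowest detected signal of the SKBR3 PBS array, from 19.3 to a log2 value of 6.01, which lowers the folds given for undetected members.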
